A study of Mus musculus with 24 samples.

Results

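The 10 genes described here belong to the machinery that reads histone H3 lysine 9 (H3K9) methylation, or that works beside it, and were followed through mouse embryonic fibroblasts (MEF) that had lost 1 to 6 of the enzymes that write this mark. They are *Cbx1*, *Cbx3* and *Cbx5*, which encode HP1 proteins, *Trim28*, the HUSH genes *Mphosph8*, *Fam208a* (also *Tasor*) and *Pphln1*, their partner *Morc2a*, and *Morc3* and *Smarcad1*. The members were taken by symbol, not by a rule on measured values, and are 10 of the 47937 gene entries of the count table. Earlier results of these data were known when the list was drawn up. All 10 passed the filter on low counts, which left 18565 genes. RNA was sequenced from 24 cultures, 3 for each of 8 conditions, so every condition mean has n = 3.

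All cultures descend from 1 MEF clone, *E1c*, with a floxed *Eset1* (*Setdb1*) allele and an inducible CreERT2 recombinase. WT is this clone without 4-hydroxytamoxifen (4-OHT), and *E1* is the same clone after 4-OHT, which leads to removal of part of *Eset1*. *E2* and *E1E2* are 1 clone with *Eset2* disrupted by Cas9, without and with 4-OHT. The first series holds *E1 S1S2*, in which *Suv39h1* and *Suv39h2* are also disrupted, and *6KO1*, derived from it and lacking all 6 enzymes. The second series, built on the *Eset2* clone, holds *E1E2 G9Gl*, in which *G9a* and *Glp* are also disrupted, and *6KO2*, derived from that line and lacking all 6 enzymes. All lines of both series received 4-OHT, as did *E1* and *E1E2*. The study's methods give a dose of 1 µM for 2 days and then 2 days without it. In the differences of these lines from WT, effects of 4-OHT itself and of the genotype cannot be told apart. Each line is 1 clone, so a line's genotype and its history cannot be told apart, except that the loss of all 6 enzymes is carried by 2 separately derived clones, and that WT and *E1*, and *E2* and *E1E2*, differ by 4-OHT within a clone. The study's methods call the 3 cultures of a condition biological replicates. The treatment entry of the labels names 4-OHT for every sample, while the titles mark WT and *E2* as controls, which was followed here.

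HP1 proteins bind methylated H3K9 through a chromodomain and bridge nucleosomes and partner proteins. Trim28 is recruited to DNA by KRAB zinc finger proteins and brings Setdb1 and HP1 to retrotransposons. The HUSH complex of Tasor, Mpp8 and periphilin is drawn to H3K9 trimethylation, works with Morc2 and Setdb1, and silences transposons and young integrated genes. Morc3 is a nuclear ATPase that also acts on endogenous retroviruses, and Smarcad1 is a remodeller that binds Trim28.

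Between 24736829 and 37419071 counts were assigned per library. WT replicate 2 stood apart: the chi-square per gene between it and the other WT libraries was 57 and 68.3, against 5.04 between those, and 2.24 to 25.2 between replicates of the mutants. It held the highest WT count of *Cbx1*, *Cbx3*, *Cbx5*, *Mphosph8*, *Fam208a*, *Pphln1*, *Morc3* and *Smarcad1* and the lowest of *Trim28* and *Morc2a*, so results that turn on it are also given without it. *Setdb1*, the gene that 4-OHT targets, was lower than in WT by 0.57 on the log2 scale in *E1* (edgeR adjusted p = 6.82e-06), and by 0.31 in both *E2* and *E1E2*. Between *E1E2* and *E2* its difference was 0.01 (adjusted p = 0.992), and the difference of the 4-OHT responses of the clones was 0.58 (adjusted p = 0.000669), so its RNA does not tell the treated cultures of this clone from the untreated, and "*E2*" below means the libraries labelled so. The deletion removes only part of the gene, so whole-gene counts are an indirect check. The fibroblast genes *Col1a1*, *Vim* and *Fn1* had at least 12127 counts in every library, although *Thy1* reached 0, *Pdgfra* 2 and *Twist1* 11 in some. Of the other marker lists, *Adgre1* (macrophages) and *Zfp42* (pluripotent cells) were at 0 in all 24 libraries. But *Cd68* (macrophages) had 56 to 606 counts, *Ptprc* (blood) up to 42, *Cd3e* (T cells) up to 37, *Esrrb* up to 20 and *Nanog* up to 10 (both pluripotent cells). The epithelial genes *Krt8* and *Krt14* had 17 to 483 and 0 to 474 counts, and *Des* (muscle) 30 to 381. Fewer cells of a type and less RNA per cell cannot be told apart in these bulk samples.

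In both *6KO* lines all 10 members differed from WT, in the same 2 groups: *Fam208a*, *Morc3* and *Morc2a* were higher, and *Cbx1*, *Cbx3*, *Cbx5*, *Trim28*, *Mphosph8*, *Pphln1* and *Smarcad1* were lower. With only the 6 libraries of each comparison in the fit, 7 members passed in *6KO1* (not *Trim28*, *Morc2a* or *Smarcad1*) and 8 in *6KO2* (not *Trim28* or *Morc2a*), where 55.3% and 38.8% of genes passed. With a filter at a mean count above 100, *Smarcad1* in *6KO1* did not pass (-0.16 in place of -0.25, adjusted p = 0.0101). In *6KO1*, *Fam208a* (2.57-fold), *Morc3* (2.29-fold) and *Pphln1* (0.49-fold) passed a 2-fold limit, and in *E1E2 G9Gl* *Morc3* (2.58-fold) and *Fam208a* (2.36-fold) did. *Fam208a* was the member with the largest fold in 6 of the 7 comparisons with WT, all but *E1E2 G9Gl*, and rose in every one of the 7. Without WT replicate 2 *Morc3* (0.85) also stood above *Fam208a* (0.80) in *E1E2*.

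These counts have to be read against the whole transcriptome, much of which changed. A member passed when the adjusted p of edgeR's quasi-likelihood test over all genes was at most 0.01. In *6KO1*, 3 members passed as higher and 7 as lower, where 66.2% of the 18565 genes passed (35.9% higher and 30.3% lower), and 3 members against 30.9% of genes passed with 2-fold. In *6KO2*, 3 were higher and 7 lower, beside 54.5% of genes (29.5% and 25%). In *E1E2 G9Gl*, 2 were higher and 7 lower, beside 59.1% (30.9% and 28.3%), and 2 members beside 25.2% of genes passed with 2-fold. In *E1 S1S2*, 3 were higher and 4 lower, beside 41.8% (19.9% and 21.9%). In *E1E2* the counts were 3 and 4, beside 33.2% (16.3% and 16.9%). In *E2* they were 3 and 1, beside 27% (12.5% and 14.4%), and in *E1* 2 and 1, beside 13.3% (6.72% and 6.6%). All members are abundant, and among the 5605 genes with a mean normalised count above 1000, 73.9% passed in *6KO1* (49% as lower) and 63.8% in *6KO2* (37.5% as lower). Of these abundant genes 69.5% passed in *E1E2 G9Gl* (42.3% as lower), 55.7% in *E1 S1S2* (32.5%) and 44.4% in *E1E2* (22.1%). In *E2* 36.9% passed (18.4% as lower), and in *E1* 15.6% (6.46%). The median log2 fold change of the members was -0.44 in *6KO1* and -0.42 in *6KO2*, where that of all genes was 0.06 and 0.04. The median of the abundant genes alone is not given here. These comparisons share the WT libraries and are not independent of each other.

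**Figure D1:**
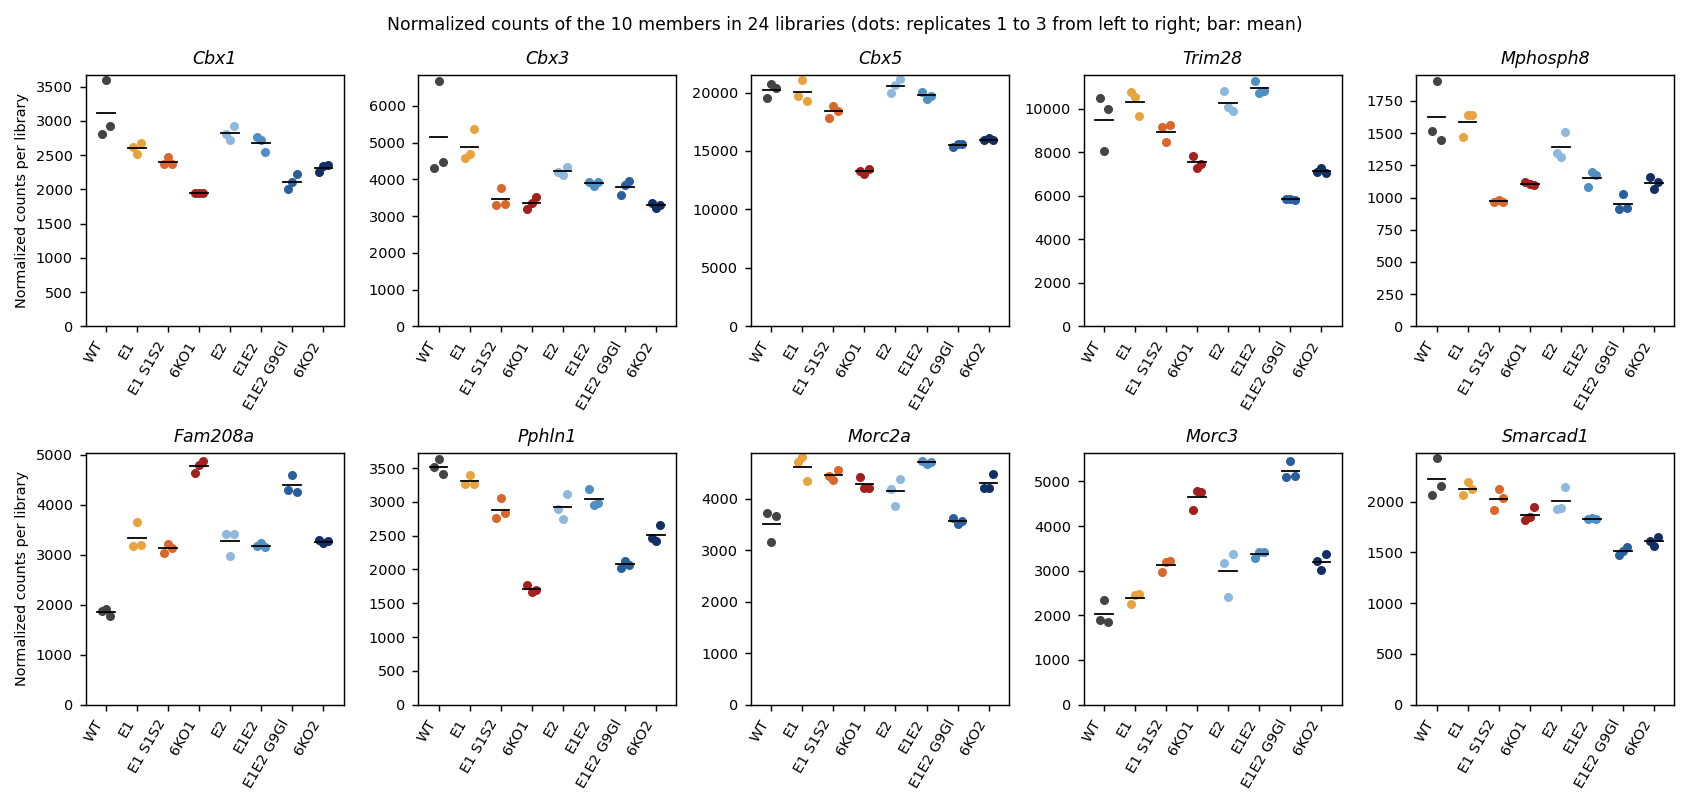
Normalised counts (vertical axes, from 0) of the 10 members in each of the 24 libraries, by condition. Dots are replicates 1 to 3 and bars are means. *Fam208a* and *Morc3* stand highest in *6KO1* and *E1E2 G9Gl*, the lines in which *Cbx1* and *Pphln1* stand lowest.

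**Figure D2:**
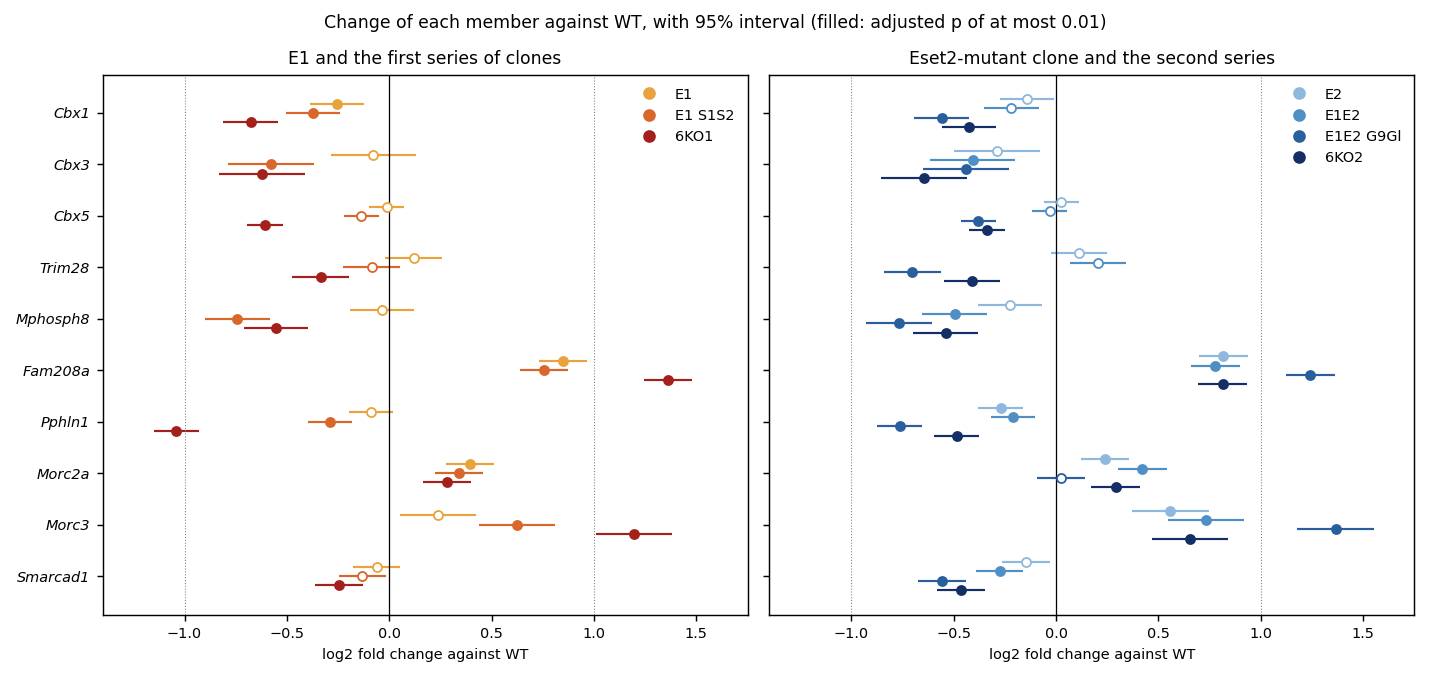
Log2 fold change of each member against WT (horizontal axes) with an approximate 95% interval, for *E1* and the first series (left) and the *Eset2* clone and the second series (right). Filled points passed the test and dotted lines mark 2-fold. *Fam208a* lies between 0.75 and 1.36 in every mutant.

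Among the HP1 genes, *Cbx5* (HP1α, ENSMUSG00000009575, chr15:103191544-103239816 of GRCm38, minus strand) passed the test in *6KO1*, *E1E2 G9Gl* and *6KO2*. WT libraries had 19505, 20730 and 20368 normalised counts (replicates 1, 2 and 3), and *6KO1* had 13283, 13066 and 13451. *E1E2 G9Gl* had 15360, 15624 and 15596, and *6KO2* 15943, 16079 and 15922. None of these 9 libraries reached the lowest of WT, *E1*, *E1 S1S2*, *E2* or *E1E2*, which was 17845 in *E1 S1S2*. *Cbx5* fell by 34.3% in *6KO1* (log2 -0.61 ± 0.04 SE, adjusted p = 2.18e-11). It fell by 23.1% in *E1E2 G9Gl* (log2 -0.38) and fell by 20.9% in *6KO2* (log2 -0.34). In *E1*, *E2* and *E1E2* its log2 differences from WT lay between -0.03 and 0.03, and none passed, nor did the -0.14 of *E1 S1S2* (adjusted p = 0.012), which DESeq2 called.

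*Cbx1* (HP1β, chr11:96789127-96808640) had 2813, 3595 and 2924 counts in WT, and 1940, 1947 and 1953 in *6KO1*. The 3 *6KO1* libraries lay close together and below every WT library, a fall of 0.68 ± 0.07 on the log2 scale (adjusted p = 5.92e-09). It was also lower in *E1 S1S2* (log2 -0.37), *E1E2 G9Gl* (-0.56) and *6KO2* (-0.42), and these falls passed without WT replicate 2 too, while that in *E1 S1S2* was lost with only the 6 libraries compared (adjusted p = 0.023). In *E1E2* the difference (-0.22, adjusted p = 0.0114) did not pass, and without WT replicate 2 it was -0.10 (adjusted p = 0.121). It did pass in DESeq2 (adjusted p = 0.0069), with a mean count above 100 and without WT replicate 1 or 3. The fall in *E1* (-0.26, adjusted p = 0.00797) was lost without WT replicate 2 (-0.14, adjusted p = 0.0555). It was also lost without each of the 3 *E1* libraries in turn, without each of 8 libraries outside the comparison, and with only the 6 libraries compared (-0.24, adjusted p = 0.178).

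*Cbx3* (HP1γ, chr6:51470360-51483704) had the widest WT spread of the members, with 4315, 6678 and 4475 counts. In *E1 S1S2*, *6KO1* and *6KO2* the 9 libraries ranged from 3200 to 3761, below every WT library. Its log2 fold changes were -0.58, -0.62 and -0.65 there, and -0.44 in *E1E2 G9Gl* and -0.41 in *E1E2*. Without WT replicate 2 they became -0.35, -0.39, -0.42, -0.21 and -0.18, over 1.5 times smaller on the log2 scale in each, and that in *E1E2* no longer passed (adjusted p = 0.032), nor did it without any 1 *E1E2* library. With only the 6 libraries compared, *Cbx3* did not pass in *E1 S1S2*, *E1E2* or *E1E2 G9Gl* (adjusted p of 0.0252 to 0.0858). Reads of *Cbx3* can also fall on processed copies: *Cbx3-ps6* matches its transcript at 99.8% over 552 bases and had a mean count of 882, and *Cbx3-ps7* matches at 99.6% with a mean of 241, beside 4012 for *Cbx3*. With these copies added the members that passed were as many in every one of 14 comparisons, an alternative chosen after the data were seen.

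*Trim28* (chr7:12999114-13031035) fell in *E1E2 G9Gl* and in both *6KO* lines. WT had 10479, 8046 and 9991 counts, and *E1E2 G9Gl* had 5865, 5859 and 5805. The *E1E2 G9Gl* libraries were the lowest of all 24, and the gene fell by 38.5% from WT (log2 -0.70 ± 0.07, adjusted p = 7.36e-09). Falls in *6KO2* (7090, 7295 and 7053 counts, log2 -0.41) and *6KO1* (7841, 7292 and 7473, log2 -0.33) passed as well, while *E1E2*, the parent condition of *E1E2 G9Gl*, lay above WT at 11305, 10735 and 10827 counts (log2 0.21, adjusted p = 0.0213, and 0.10, adjusted p = 0.143, without WT replicate 2). Without WT replicate 1 this rise passed (0.28, adjusted p = 0.00274). Without WT replicate 2 *Trim28* in *E1 S1S2* also passed as lower (-0.19 from -0.09, adjusted p = 0.00336).

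Of the HUSH core, *Mphosph8* (chr14:56668248-56697430), whose chromodomain protein Mpp8 recognises methylated H3K9, was lower in *E1 S1S2*, *E1E2* and the 3 lines derived from them. WT had 1516, 1906 and 1446 counts and *E1 S1S2* 968, 979 and 964, a fall of 0.74 ± 0.08 on the log2 scale (adjusted p = 5.89e-08). The *E1 S1S2* libraries lay close together and far below *E1*, which had 1472, 1643 and 1638. *E1E2 G9Gl* (-0.77), *6KO1* (-0.55), *6KO2* (-0.54) and *E1E2* (-0.50) were lower too, and *E1* (-0.04) and *E2* (-0.22, adjusted p = 0.0304) did not pass. The fall in *E1E2* was lost with only the 6 libraries compared (adjusted p = 0.0121). Without WT replicate 2 the small difference in *E1* turned sign (0.10), and that in *E2* became -0.09 (adjusted p = 0.304). The gene *Gm16973* on the opposite strand shares 384 exonic bases with *Mphosph8* and had a mean count of 198. It was lower in *E1 S1S2* (log2 -0.39) and *E1E2 G9Gl* (-0.43), the lines in which *Mphosph8* fell furthest, and higher in *6KO1* (0.76), where *Mphosph8* also fell. Its part in the *Mphosph8* counts was not tested, since the strand setting of the counting is not given in the sources used here.

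*Fam208a* (ENSMUSG00000040651, chr14:27428834-27483555), which encodes Tasor, the scaffold of HUSH, rose in every mutant. WT libraries had 1879, 1913 and 1773 normalised counts, and *E1* had 3173, 3651 and 3193. In *6KO1* the counts were 4627, 4788 and 4881, and in *E1E2 G9Gl* 4298, 4594 and 4259. The lowest library of any mutant was the second of *E2*, at 2967 counts, so no mutant library overlapped WT. The log2 fold change was 0.85 ± 0.06 in *E1* (adjusted p = 2.00e-10), and 0.75 in *E1 S1S2*, 0.82 in *E2*, 0.78 in *E1E2* and 0.81 in *6KO2*. It reached 1.36 ± 0.06 in *6KO1* (adjusted p = 3.01e-15) and 1.24 in *E1E2 G9Gl*. Without WT replicate 2 the 7 values ranged from 0.78 to 1.38. Exons of *Fam208a* share 1763 bases with *Ccdc66* on the opposite strand (mean count 1037, beside 3388 for *Fam208a*). *Ccdc66* differed by 0.06 in *E1* (adjusted p = 0.681) and by -0.09 in *E1E2 G9Gl* (adjusted p = 0.346), where *Fam208a* rose, and rose by 0.51 in *6KO1*, 0.50 in *E1E2* and 0.42 in *E2*. Its part in the *Fam208a* counts of those lines was not tested.

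*Pphln1* (chr15:93398350-93491510), which encodes periphilin, fell furthest in *6KO1*. WT had 3519, 3629 and 3419 counts, *6KO1* had 1774, 1672 and 1694, and *E1E2 G9Gl* had 2022, 2131 and 2069. *6KO2* lay between, at 2473, 2420 and 2653. The 2 *6KO* lines do not overlap each other or WT. The log2 fold changes were -1.04 ± 0.06 in *6KO1* (adjusted p = 8.91e-14), -0.76 in *E1E2 G9Gl* and -0.49 in *6KO2*, and smaller falls passed in *E1 S1S2* (-0.29), *E2* (-0.27) and *E1E2* (-0.21). These smaller falls were all lost with only the 6 libraries compared (adjusted p of 0.0261, 0.0816 and 0.0564), and that in *E1E2* also without the filter on low counts (0.0156) and without *E1E2* replicate 2 or 3. Within the HUSH core the RNA of *Fam208a* rose while those of *Mphosph8* and *Pphln1* fell in both *6KO* lines and *E1E2 G9Gl*.

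*Morc2a* (chr11:3649191-3690477), the ATPase that works with HUSH, was higher in each mutant but *E1E2 G9Gl*. WT had 3726, 3150 and 3663 counts, *E1* had 4711, 4807 and 4339, and *E1E2* 4726, 4676 and 4712. The *E1E2* and *E1* libraries were all above WT, with log2 fold changes of 0.42 and 0.39. Rises of 0.24 to 0.34 passed in *E1 S1S2*, *6KO1*, *6KO2* and *E2*, the last of which was lost without WT replicate 2 (0.17, adjusted p = 0.0167) and without *E2* replicate 1 or 3. With only the 6 libraries compared, *Morc2a* passed in *E1E2* alone, and had adjusted p-values of 0.0117 to 0.115 in *E1*, *E1 S1S2*, *6KO1*, *6KO2* and *E2*. In *E1E2 G9Gl* the counts were 3632, 3508 and 3568, below WT replicates 1 and 3 and above replicate 2. The difference was 0.02 (adjusted p = 0.755), and -0.05 (adjusted p = 0.398) without WT replicate 2. *Tug1*, on the opposite strand, shares 483 exonic bases and had a mean count of 5022, above that of *Morc2a* (4207). It also rose in *6KO1* (0.34), *E1E2* (0.22) and *E1 S1S2* (0.21), and in *E1E2 G9Gl* (0.17), where *Morc2a* did not pass. In *E1*, where *Morc2a* rose, it differed by 0.09 (adjusted p = 0.239). Its part in the *Morc2a* counts was not tested.

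*Morc3* (ENSMUSG00000039456, chr16:93832121-93876073) rose in every mutant but *E1*. WT had 1893, 2340 and 1849 counts, *E1 S1S2* had 2965, 3189 and 3213, and *6KO1* had 4368, 4786 and 4766. *E1E2 G9Gl* reached 5088, 5459 and 5123, the highest of all libraries, and *6KO2* only 3205, 3009 and 3362. WT overlapped *E1* (2259, 2452 and 2469) through its second library, and no other mutant. The log2 fold changes were 1.36 ± 0.10 in *E1E2 G9Gl* (adjusted p = 1.27e-11), 1.19 in *6KO1*, 0.73 in *E1E2*, 0.65 in *6KO2*, 0.62 in *E1 S1S2* and 0.56 in *E2*. In *E1* the difference was 0.24 (adjusted p = 0.0808), and without WT replicate 2 it was 0.36 and passed (adjusted p = 0.00557). With only the 6 libraries compared, the rise in *E2* did not pass (adjusted p = 0.0205).

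*Smarcad1* (chr6:65042583-65116061) fell in 4 of the 7 mutants. WT had 2069, 2435 and 2157 counts, *E1E2 G9Gl* had 1472, 1510 and 1552, and *6KO2* had 1609, 1567 and 1652. Both lines lay below all libraries of the other 6 conditions. The log2 fold changes were -0.56 ± 0.06 in *E1E2 G9Gl* (adjusted p = 2.10e-08), -0.46 in *6KO2*, -0.28 in *E1E2* and -0.25 in *6KO1*, and none passed in *E1*, *E2* or *E1 S1S2*. With only the 6 libraries compared, *E1E2* did not pass either (adjusted p = 0.0296).

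The sequences just before the starts of *Fam208a* and *Morc3*, which rose furthest, and of *Cbx5*, which fell, are shown so that their base composition can be set beside these values. They are the 250 bases upstream of the RefSeq start (GRCm38.p6), written 5′ to 3′ on the strand of the gene, at chr14:27428584-27428833 (plus strand), chr16:93831871-93832120 (plus) and chr15:103239853-103240102 (minus). All 10 members were matched. Capitals mark matches, on either strand, to GGGCGG (a GC box), CCAAT, CCGGAAGT (an ETS site), TGACGTCA (a cAMP response element) and AANNGAAA (an interferon regulatory factor core). The CCAAT and AANNGAAA matches of *Fam208a* overlap.

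*Fam208a*: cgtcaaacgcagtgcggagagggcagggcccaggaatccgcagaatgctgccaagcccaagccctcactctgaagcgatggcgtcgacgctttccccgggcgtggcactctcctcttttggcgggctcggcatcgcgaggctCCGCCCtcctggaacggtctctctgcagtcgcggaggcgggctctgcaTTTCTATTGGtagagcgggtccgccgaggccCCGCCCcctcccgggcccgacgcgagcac

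*Morc3*: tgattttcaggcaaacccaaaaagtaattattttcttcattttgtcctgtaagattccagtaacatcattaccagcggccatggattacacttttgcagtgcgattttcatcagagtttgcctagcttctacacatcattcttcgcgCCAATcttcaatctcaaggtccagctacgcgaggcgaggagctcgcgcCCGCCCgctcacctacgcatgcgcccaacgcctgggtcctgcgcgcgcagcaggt

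*Cbx5*: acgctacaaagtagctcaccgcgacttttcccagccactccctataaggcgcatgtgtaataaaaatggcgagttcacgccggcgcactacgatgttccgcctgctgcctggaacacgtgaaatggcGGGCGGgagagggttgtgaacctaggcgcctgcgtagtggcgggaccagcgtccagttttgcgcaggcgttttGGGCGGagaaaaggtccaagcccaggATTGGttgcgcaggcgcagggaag

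The *Fam208a* window holds 2 GC boxes, 1 CCAAT and 1 AANNGAAA, and *Morc3* 1 GC box and 1 CCAAT. *Cbx5* holds 2 GC boxes and 1 CCAAT. Of 32841 such windows, 32.7% hold GGGCGG, 33.9% CCAAT, 21.3% AANNGAAA, 2.88% CCGGAAGT and 1.55% TGACGTCA. The last 2 are in none of the windows of the 10 members, which says only that these letters are not there. The members' windows hold 13 to 46 CpG dinucleotides (27 in *Fam208a*, 17 in *Morc3*, 22 in *Cbx5*) and the median window 6.

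The steps between related lines show where each member moved. Among the genes with a mean normalised count above 1000, 45.6% passed from *E1* to *E1 S1S2* (28.1% as lower). From *E1 S1S2* to *6KO1* it was 58.7% (40.7% as lower). In the second series it was 61.2% from *E1E2* to *E1E2 G9Gl* (38.5% as lower) and 49.5% from there to *6KO2* (21.4%). From *E1* to *E1 S1S2* (disruption of *Suv39h1* and *Suv39h2*), 1 member rose and 3 fell, where 33.5% of genes passed (16.1% higher and 17.3% lower): *Morc3* rose by 0.38, and *Mphosph8* (-0.71), *Cbx3* (-0.50) and *Pphln1* (-0.20) fell. The *Pphln1* call was lost without the filter on low counts (adjusted p = 0.056), with a mean count above 100, with only the 6 libraries compared and without any 1 *E1* library, and that of *Morc3* without *E1* replicate 1 (0.34, adjusted p = 0.0139). *Fam208a* differed by -0.09 at this step (adjusted p = 0.218). From *E1 S1S2* to *6KO1*, 2 rose and 4 fell, beside 53.3% of genes (30.4% and 22.9%): *Fam208a* by 0.61 and *Morc3* by 0.57 upward, and *Pphln1* (-0.75), *Cbx5* (-0.47), *Cbx1* (-0.30) and *Trim28* (-0.25) downward, the last of which was lost with a mean count above 100 (adjusted p = 0.0245) and without *E1 S1S2* replicate 1 or 3 or *6KO1* replicate 2. *Mphosph8* differed by 0.19 at the second step (adjusted p = 0.0447), which passed with a mean count above 100 (0.23), with only the 6 libraries compared (0.17) and without WT replicate 2 (0.19).

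In the second series, from *E1E2* to *E1E2 G9Gl* (disruption of *G9a* and *Glp*), 2 members rose and 7 fell, beside 53.4% of genes (28.7% and 24.7%). *Trim28* fell furthest, by 0.91 ± 0.07 (adjusted p = 1.20e-10), and *Pphln1* (-0.56) and *Morc2a* (-0.40) followed, while *Morc3* rose by 0.63 and *Fam208a* by 0.46. The other 4 that fell (*Cbx1*, *Cbx5*, *Smarcad1*, *Mphosph8*) did so by 0.27 to 0.35, and *Cbx3* differed by -0.03. The *Mphosph8* call was lost with RLE factors, in DESeq2, with a mean count above 100 (adjusted p of 0.0103 to 0.0121) and without *E1E2* replicate 2 or 3 or *E1E2 G9Gl* replicate 1 or 3. From *E1E2 G9Gl* to *6KO2* part of this turned back: 3 members rose and 2 fell, beside 43.6% of genes (21.3% and 22.3%). *Trim28* (0.29), *Pphln1* (0.28) and *Morc2a* (0.27) rose, and *Morc3* (-0.71) and *Fam208a* (-0.43) fell. Without *E1E2 G9Gl* replicate 2 the rises of *Trim28* (adjusted p = 0.0118) and *Morc2a* (0.0108) were lost, and that of *Trim28* also without replicate 3. Since each line is 1 clone, loss of the last enzymes and the drift of the clone cannot be told apart at any of these steps.

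The 2 lines without all 6 enzymes differed from each other in 6 members, 3 higher and 3 lower in *6KO2*, beside 49.2% of genes (24.2% and 25%). In *6KO2*, *Fam208a* was lower than in *6KO1* by 0.55 and *Morc3* by 0.54, and *Pphln1* was higher by 0.55 (adjusted p = 1.41e-08). *Cbx5* (0.27) and *Cbx1* (0.25) were also higher and *Smarcad1* (-0.22) lower. The *Cbx1* call was lost without *6KO2* replicate 2 or 3 (adjusted p of 0.0104 and 0.012), and that of *Smarcad1* without the filter on low counts (0.0264) and without *6KO1* replicate 3 or *6KO2* replicate 1 or 2. *Cbx3*, *Trim28*, *Mphosph8* and *Morc2a* had differences of -0.08 to 0.01 that did not pass. Between *E1E2* and *E1*, 1 member was higher and 2 were lower, beside 22.3% of genes (11.5% and 10.8%): *Morc3* (0.49), *Mphosph8* (-0.46) and *Smarcad1* (-0.21). The *Smarcad1* call was lost without the filter on low counts (adjusted p = 0.0201) and without any 1 of the *E1* or *E1E2* libraries. *Cbx3* (-0.33, adjusted p = 0.02) did not pass, but did without that filter (adjusted p = 3.32e-05), with only the 6 libraries compared (0.00155) and without WT replicate 1 or 2.

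The 4-OHT treatment of both clones allowed a direct comparison of the response. In the *E1c* clone, *Fam208a* rose from 1855 ± 72.8 to 3339 ± 271 normalised counts (mean ± SD, n = 3). In the *Eset2* clone it was 3269 ± 261 without and 3180 ± 39.7 with 4-OHT. Thus the libraries labelled *E2* had about the level of *E1*, and those labelled *E1E2* did not differ from them detectably (log2 -0.04, adjusted p = 0.729). The difference of the 2 responses was -0.89 ± 0.085 (adjusted p = 7.51e-08), and *Fam208a* was the 1 member that passed this test, as lower, beside 8.89% of genes (4.4% higher and 4.49% lower). Between *E1E2* and *E2*, 0 members passed in edgeR, where 11.9% of genes did (6.58% higher and 5.36% lower), 0 passed in DESeq2, and 3 had an unadjusted p of at most 0.05 in edgeR. Without WT replicate 2, which alters the shared spread, *Mphosph8* (-0.27) and *Morc2a* (0.18) passed in that comparison, and the response of *Mphosph8* then differed between the clones too (-0.37, adjusted p = 0.00341).

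Across the 24 libraries the members fell into patterns, given here as a description, since the libraries share clones, treatments and the scaling. *Cbx5* and *Pphln1* were most alike, with a Pearson r of log2 normalised counts of 0.94, and *Cbx1* was close to both (0.89 with each). *Fam208a* and *Morc3* were alike (0.87), and *Pphln1* ran against *Morc3* (-0.84) and *Fam208a* (-0.81). *Morc2a* was unlike the rest, with its highest value for *Trim28* (0.51).

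**Figure D3:**
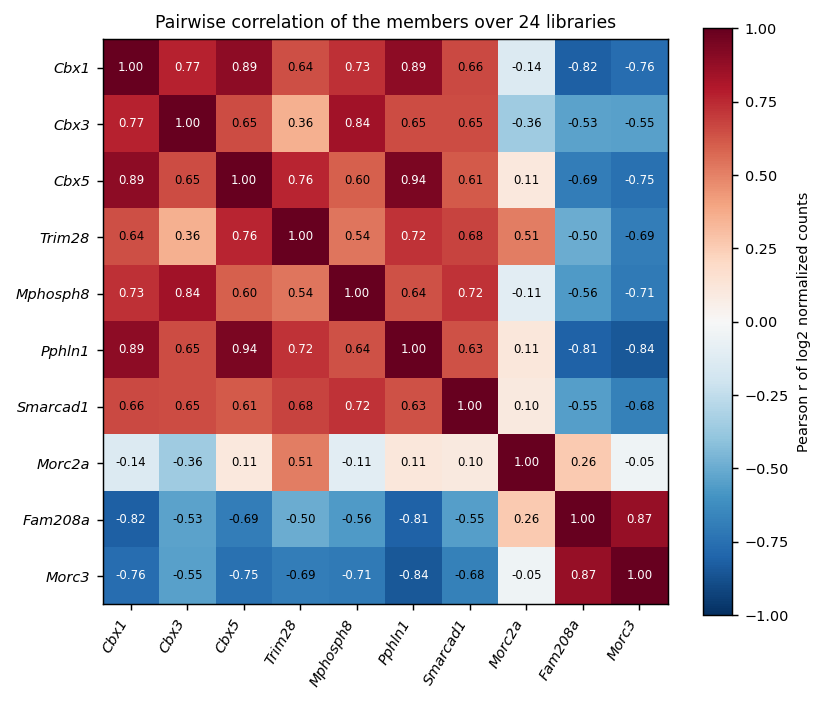
Pearson r of log2 normalised counts over 24 libraries for each pair of members (colour scale from -1 to 1). *Fam208a* and *Morc3* have negative values with the 7 members that were lower in both *6KO* lines.

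The other genes most like each member, among 10417 protein-coding genes with a mean normalised count above 100, were named by a common rule, 2 for each member. For *Morc3* these were *Gbp6* and *Irgm2* (r = 0.96 for both), which encode interferon-inducible GTPases. For *Cbx5* they were *Smarca5*, the ISWI remodeller ATPase (0.98), and *Nup133*, a nucleoporin (0.98). For *Pphln1* they were *Hnrnpab*, an RNA-binding protein, and *Sinhcaf*, a Sin3 corepressor subunit (0.98 for both). *Fam208a* was followed by *Tnfrsf22* and *Syt13* (0.95 for both), and *Trim28* by *Erf*, an ETS-family repressor, and *Sf3a1*, a splicing factor (0.97 for both). For *Cbx1* they were *St13* (0.97) and *Slc39a10* (0.96), for *Cbx3* *Trmt11* (0.97) and *Hnrnpa2b1* (0.96), for *Mphosph8* *Zmym2* and *Bmpr1a* (0.94 for both), for *Smarcad1* *Ppp4r3b* and *Ube3a* (0.96 for both), and for *Morc2a* *Cgas*, the cytosolic DNA sensor (0.88), and *Sart1* (0.86).

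Genes linked to the members are described by counts, to be read beside the 66.2% of all genes that passed in *6KO1* and the 54.5% in *6KO2*, and the medians of all genes, 0.06 and 0.04. Of 9 tested HUSH-linked and MORC genes, 4 were higher and 5 lower in *6KO1*, and 3 and 4 in *6KO2*, with median log2 fold changes of -0.45 and -0.07. *Resf1*, a Setdb1 partner, was higher in all 7 mutants by 2.03 to 2.77, and *Atf7ip*, which stabilises Setdb1, by 1.57 to 2.11. *Morc2b*, a copy of *Morc2a* that is normally of the germ line, was higher by 4.19 ± 0.82 (SE) in *6KO1* and 3.95 ± 0.87 in *6KO2*. These values are far less exact than those of *Resf1*, whose SE was 0.07 in both lines. *Morc4* was lower by 1.17 in *6KO1* and 0.76 in *6KO2*. Both *Resf1* and *Atf7ip* had a 4-OHT response that differed between the clones, by -2.06 (adjusted p = 2.47e-13) and -1.66 (adjusted p = 3.62e-10), as *Fam208a* had.

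Of 19 TIF1 family and Trim28 corepressor genes, 5 were higher and 11 lower in *6KO1* (median -0.43), and 4 and 9 in *6KO2* (median -0.22). *Trim24*, a relative of *Trim28*, was higher by 1.42 to 2.29 in all 7 mutants, and its 4-OHT responses differed by -2.24 (adjusted p = 5.45e-14). *Zfp809*, a KRAB zinc finger gene against murine leukaemia virus, was higher in *6KO1* (0.83) and *6KO2* (1.08), and *Zfp57* (-1.26 and -0.29) and the deacetylase gene *Hdac2* (-1.14 and -0.38) were lower.

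Of 19 HP1 partner genes, 5 were higher and 6 lower in *6KO1* (median 0.10), and 10 and 5 in *6KO2* (median 0.25). *Senp7*, a SUMO protease that binds HP1 (0.92 and 0.25), was higher in both. *Cdyl2* rose in *6KO1* (0.99) and fell in *6KO2* (-2.34), and *Hmga1* fell in *6KO1* (-0.69) and rose in *6KO2* (0.26). Of 16 remodeller genes, 2 were higher and 6 lower in *6KO1* (median -0.20), and 1 and 6 in *6KO2* (median -0.09), with *Smarca2* (-2.08 and -1.88), *Smarca5* (-0.85 and -0.46), *Hells* (-0.39 and -0.52) and *Atrx* (-0.23 and -0.46) lower in both. *Smarca1*, named after its values were seen, had the largest change of this list in *6KO1* (2.84, adjusted p = 3.09e-05) and did not pass in *6KO2* (1.81, adjusted p = 0.0133). Of 5 other chromobox genes, which belong to Polycomb complexes, 1 was higher and 3 lower in *6KO1* (median -0.59), and 1 and 4 in *6KO2* (median -0.49). *Cbx2* (-1.56 and -0.78) and *Cbx6* (-0.59 and -0.37) were lower in both and *Cbx7* (1.15 and 2.29) higher.

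**Figure D4:**
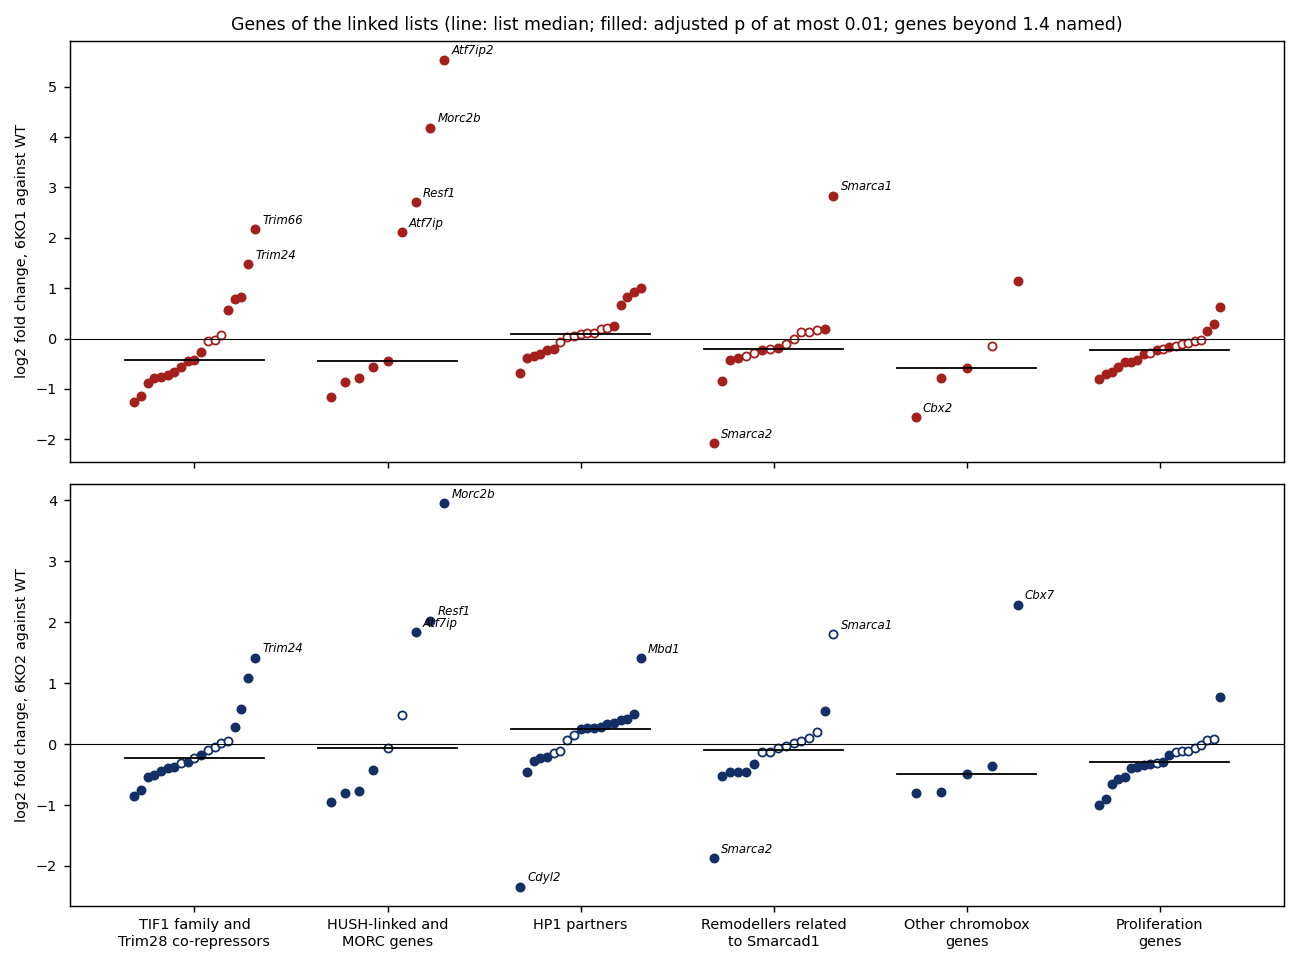
Log2 fold change against WT (vertical axes) of the genes of 6 lists in *6KO1* (top) and *6KO2* (bottom). Points are genes, filled where the test passed, lines are list medians, and genes beyond 1.4 are named. *Resf1*, *Atf7ip* and *Trim24* stand above 1.4 in both lines.

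Proliferation genes and markers of cell types also differed between the lines and are given beside the members, to be read against the same shares of all genes. Of 20 proliferation genes, 3 were higher and 10 lower in *6KO1* (median -0.22), and 1 and 11 in *6KO2* (median -0.30), with *Bub1* (-0.81 and -0.91), *Bub1b* (-0.71 in *6KO1*) and *Top2a* (-0.66 and -0.65) lower and *Rrm2* (0.62 and 0.78) higher. Their summed counts were 113470 to 117511 in *6KO1* and 109754 to 114027 in *6KO2*, below the 127499 to 143760 of WT, while those of *E1E2 G9Gl* (124103 to 128844) overlapped WT. Of 12 fibroblast genes, 1 was higher and 9 lower in *6KO1*, and 1 and 6 in *6KO2*. Their sum was 99715 to 111535 in *6KO1*, 146234 to 149477 in *6KO2*, 226941 to 244745 in *E1E2 G9Gl* and 174565 to 218237 in WT. Of 6 epithelial genes 3 were tested, and 2 were higher and 1 lower in each *6KO* line, with sums of 656 to 693 in *6KO1* and 589 to 621 in *6KO2* against 33 to 50.2 in WT. Of the 4 endothelial genes, 3 were higher in *6KO1* and 4 in *6KO2*, with sums of 121.3 to 139.8 and 100.3 to 138.1 against 11.9 to 14.9. Of 5 blood genes 3 were tested, and 2 were higher in *6KO1* (sums 481 to 544) and 1 in *6KO2* (100.5 to 122), against 89.5 to 104.4 in WT, with *Adgre1* at 0. The 1 muscle gene tested of 3 was higher in both lines, and the 1 pluripotency gene tested of 4 was higher in *6KO1*, with sums of at most 7 there and 9 in WT. In *E1E2 G9Gl*, where 59.1% of all genes passed, the sums were 307.6 to 325.8 for the epithelial, 171 to 185.5 for the blood, 67.4 to 87.9 for the endothelial, 303.1 to 313.4 for the muscle and 22.7 to 30.1 for the pluripotency genes, against 30.1 to 34.7 for muscle and 3.7 to 9 for pluripotency genes in WT. The part of proliferation or of other cell types in the members' changes was not tested.

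Set against each other per length, as CPM on TMM-scaled library sizes per kilobase of exon, *Trim28* (90.3 ± 12.2, SD, n = 3) and *Cbx5* (88.6 ± 2.76) were highest in WT and did not differ beyond their spread. *Cbx3* (34.0 ± 8.70), *Pphln1* (30.6 ± 0.911) and *Cbx1* (28.7 ± 3.91) formed a middle group within the spread of *Cbx3*. *Morc2a* (21.6 ± 1.94), *Mphosph8* (17.9 ± 2.73) and *Morc3* (14.7 ± 1.98) came next, and each overlapped its neighbour among these within 1 SD. *Smarcad1* (6.58 ± 0.565) and *Fam208a* (5.38 ± 0.211) were lowest, and did not overlap within 1 SD. In *6KO1*, *Morc3* (33.7 ± 1.72) stood above *Cbx3* (22.1 ± 1.04) and *Pphln1* (14.9 ± 0.468), and *Fam208a* (13.8 ± 0.372) was above *Mphosph8* (12.2 ± 0.116). The length matters for this order: with the mean length of the coding transcripts in place of all exons, *Cbx5* (228) and *Cbx3* (150) stood above *Trim28* (116) in WT, and *Smarcad1* (49.4) above *Morc2a* (36.2), while *Fam208a* (13.8) was still lowest. On this length the order in *6KO1* turned too, with *Morc3* (56.4) below *Cbx3* (97.8).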

How the data were processed

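Stranded total RNA libraries of 24 MEF cultures were read from both ends. The authors trimmed reads with cutadapt 1.8.1, aligned them to GRCm38 with STAR 2.5.2b, ran TEtranscripts for genes and for repeats, and deposited whole-number counts without normalization. The strand setting is not given in the sources used here. Beside 47937 genes and 1445 kinds of repeat, 1 malformed entry (0.00201% of counts) was left out. No column lacked a sample.

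Genes were filtered with filterByExpr (18565 left) and scaled with TMM factors from genes. All 24 libraries (total counts 24736829 to 37419071) entered 1 quasi-likelihood fit in edgeR 4.0.16 (R 4.3.3, limma 3.58.1), with 1 coefficient per condition and prior degrees of freedom of 6.33. Tests are two-sided with Benjamini-Hochberg adjustment over all genes in each of 15 comparisons. Intervals are approximate, from the standard error. p-values measure the spread between cultures of the same condition, estimated over all 8 conditions together, and not the spread between clones. In simulated data for *6KO1* against WT (17485 genes), 50 genes were changed at each fold. Of those, 8% were recovered at 1.25-fold, 62% at 1.5-fold, 98% at 2-fold and 100% at 3-fold, with 3 false calls. Far fewer genes changed there than in the data, where 66.2% passed in *6KO1*, and the adjusted p depends on that share. A change of 1.5-fold or less could be missed in the simulation. How often it is missed in the data was not tested.

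The members and the lists were chosen with earlier results of these data known. Named genes are the members, the 2 genes most like each (log2 of counts plus 1), and up to 4 per list with the largest change in *6KO1* among those passing in both *6KO* lines. Some genes of the lists are not reported here. *Setdb1*, the marker genes and overlapping genes or copies are named outside this rule. Lengths and overlaps come from GENCODE vM21, upstream sequences from RefSeq (GRCm38.p6). Alternatives were DESeq2 1.42.0, RLE factors, factors with repeats, other filters and limits, single comparisons, the replicate block and each library left out. Figures were drawn with matplotlib 3.10.9.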

Additional observations from a re-analysis of the deposited data

Results flagged for a closer look

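The response of *Fam208a* to 4-OHT differed between the clones by -0.89 (log2, response in the *Eset2* clone minus that in the *E1c* clone, edgeR adjusted p = 7.51e-08), a result of the test of the difference itself. All 3 *E1* libraries lay above all 3 WT libraries, while the *E1E2* libraries lay within the range of *E2*. Leaving out each library in turn gave differences between -0.95 and -0.82, and the test was passed each time. *Setdb1*, the gene that 4-OHT targets, itself had a response that differed by 0.58 (adjusted p = 0.000669), with no difference detected between the libraries labelled *E2* and *E1E2* (0.01, adjusted p = 0.992), so whether these libraries differ in treatment as labelled was not tested, and the *Fam208a* value is a difference between labelled groups. The paper reports that western blots of its lines showed efficient *Eset1* deletion with tamoxifen. It marks the expression of LTR repeats as different from WT in *E1E2* and not in *E2*, and that of their ERVK family in both.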

How the results depend on the processing

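Every member had a mean count above 1000, so no member was limited by a low count. RLE factors moved no count of members beyond 1.5 times, and neither did factors from genes and repeats together, DESeq2, a mean count above 100, or *Cbx3* counted with its copies. The fall of *Mphosph8* from *E1E2* to *E1E2 G9Gl* (-0.27) was lost with RLE factors (-0.25, adjusted p = 0.0114) and in DESeq2 (-0.24, adjusted p = 0.0121). Without a filter on low counts 1 member (*Mphosph8*, -0.28, adjusted p = 0.0065) passed for *E1E2* against *E2*, where 0 had. The share of all genes in that fit is not given here, and it was 11.9% with the filter. With only the 6 libraries compared, the counts against WT were 1 for *E1*, 3 for *E1 S1S2*, 1 for *E2* and 3 for *E1E2*, and 7 for *6KO1* and 8 for *6KO2* in place of 10 and 10, where 4.94%, 27.1%, 7.61%, 17.1%, 55.3% and 38.8% of genes passed. At an adjusted p of at most 0.05 the count for *E1E2* against *E2* was 2, beside 19.5% of genes. With a 2-fold limit it was 3 for *6KO1* and 2 for *E1E2 G9Gl* against WT, beside 30.9% and 25.2% of genes. It was 0 for *E1*, *E1 S1S2*, *E2*, *E1E2* and *6KO2* against WT and for the steps between related lines (*E1 S1S2* against *E1*, *6KO1* against *E1 S1S2*, *E1E2* against *E1*, *E1E2 G9Gl* against *E1E2*, *6KO2* against *E1E2 G9Gl*, *6KO2* against *6KO1*), whose largest change was -0.91 for *Trim28*. The share of all genes at this limit is not given here for the comparisons with 0, so those counts are not read as a result about the members. At an unadjusted p of at most 0.05 the count of members was 8 for *E2* against WT, 3 for *E1E2* against *E2* and 5 for *E1E2* against *E1*, beside 45.8%, 30.4% and 41.1% of genes.

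Leaving out each library in turn gave 2 (without *E1* replicate 1) to 6 members (without WT replicate 2) for *E1 S1S2* against *E1*, and 0 to 2 (without WT replicate 2) for *E1E2* against *E2*. It gave 3 (without *E1E2 G9Gl* replicate 2) to 7 (without WT replicate 2) for *6KO2* against *E1E2 G9Gl*, and 1 to 2 (without WT replicate 2) for the difference of the 4-OHT responses. With all libraries 33.5%, 11.9%, 43.6% and 8.89% of genes passed in these comparisons. The shares of all genes with a library left out are not given here, so whether the members moved with the other genes was not tested. Differences that had not passed turned sign in *E1* against WT: *Cbx3* ranged from -0.19 to 0.15, *Cbx5* from -0.0499 to 0.0124, *Mphosph8* from -0.11 to 0.10 and *Smarcad1* from -0.11 to 0.01. *Morc2a* in *E1E2 G9Gl* ranged from -0.0513 to 0.0657, and was -0.0188 with factors from genes and repeats. Calls gained in some of these fits and not named beside their gene include those of *Cbx3* and *Mphosph8* in *E2* against WT. Without WT replicate 2 these *E2* differences were -0.06 and -0.09 and did not pass. Further gains were those of *Cbx5* and *Trim28* in *E1 S1S2* against *E1*, and of *Mphosph8* in *6KO2* against *E1E2 G9Gl*. In that last comparison *Cbx3* (-0.20) also passed without WT replicate 2 (adjusted p = 0.00458). The cause was not tested. Same-numbered replicates did not deviate together (r of -0.25 to 0.26, median 0.011), and with the replicate block the counts were as without it, 10 for *6KO1* and 10 for *6KO2* against WT.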
